A study of Mus musculus with 1479 samples.

Results

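Expression of 9 collagen genes was followed in single cells of the mouse urinary bladder. The genes were Col6a1, Col6a2 and Col6a3 (collagen VI), Col8a1 and Col8a2 (collagen VIII), Col12a1, Col14a1 and Col16a1 (fibril-associated collagens XII, XIV and XVI) and Col13a1 (the membrane collagen XIII). They were taken by gene symbol, and all 9 were found among the 46517 gene rows of the count table. All 1479 cells came from dissociated bladders of adult male mice aged 10 to 20 weeks, and each was sorted into its own well, read out by Smart-seq2 and given a cluster number from 1 to 11 by the authors. The mice belonged to 5 lines: PdgfrbGFP, which gave 810 cells, C57BL6 without a reporter (190 cells), Acta2GFP, Cspg4dsRED and PdgfraGFP. In the reporter lines a fluorescent protein marks cells in which the promoter of the named gene is active, and cells were sorted by the reporter of the line or by antibodies to PDGFRA or PDGFRB, and without CD31, a surface protein of endothelial cells. The labels do not give the gate of each cell, and they name no animal. The line was therefore used as the replicate, and p-values measure the spread between these lines only.

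Collagen VI is secreted as tetramers of heterotrimers and forms beaded microfilaments close to the cell surface, where it links cells to the fibres and basement membranes around them. All 3 chains carry von Willebrand factor A domains beside a short triple helix, and the long α3 chain has the most of them. Collagen VIII is a short-chain collagen that forms hexagonal networks, for example in vessel walls and under the corneal endothelium. Collagens XII, XIV and XVI lie on the surface of collagen I fibrils or of microfibrils and help to set fibril spacing. The bladder wall depends on such matrix for its compliance during filling.

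The cluster labels were first set against marker genes. In cluster 10, all 9 vascular mural markers were called higher and all 8 fibroblast markers lower than in the other clusters, so cluster 10 is called mural-like here and clusters 1 to 9 and 11 are called fibroblast clusters. Cluster 5 had 4 of 5 sub-epithelial fibroblast markers called higher than the other fibroblast clusters, among them Tnc, and 3 of 8 fibroblast markers called lower; it holds the cells the study names Tnc+ Cd34-. Cluster 4 was the least clear, with a summed fibroblast marker level of 7084 to 11180 against at least 14220 in any line of the other fibroblast clusters. Endogenous reads per cell had a median of 212483, with cluster medians from 108489 in cluster 4 to 302447 in cluster 6 and 128369 in cluster 10. Some groups rest on few cells: C57BL6 gave 3 cells of cluster 10, and Cspg4dsRED gave 3 of cluster 5 and 3 of cluster 6. A level is the number of reads per 500000 endogenous reads, taken cell by cell, averaged within each line that had at least 3 cells in the group, and then averaged over lines. The clusters were made by the authors from the same values, so a test between clusters says only how far a difference repeats from line to line.

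Levels of different genes were compared per kilobase of exon. In the fibroblast clusters, Col6a1 (251.8 ± 79.2 per kilobase, SD, n = 5 lines), Col6a2 (172.9 ± 49.7) and Col14a1 (127.7 ± 27.7) were the most abundant members. Col6a3 (21.3 ± 6.05), Col8a1 (19.8 ± 8.46), Col16a1 (12.6 ± 4.81) and Col12a1 (6.04 ± 5.53) came next. The Col12a1 value rests in part on PdgfraGFP, with a level of 234.9 against 18.4 to 90.6 in the other lines, and without it the mean level fell from 91.99 to 56.3. Col8a2 stood at 1.49 ± 0.785, and Col13a1 was close to 0. Reads were seen in 1460 cells for Col6a1, 1459 for Col6a2, 1415 for Col14a1, 1254 for Col6a3, 1142 for Col8a1, 1011 for Col16a1, 859 for Col12a1 and 10 for Col13a1. The first 3 genes had reads in nearly all cells. The order of the members depends on the length used: per kilobase of the main transcript, an alternative chosen after seeing the data, Col6a2 stood at 364.5 ± 104.8 and Col6a1 at 269.02 ± 84.6, and Col8a1 (30.4 ± 12.97) and Col6a3 (28.2 ± 8.04) also changed places.

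**Figure D1:**
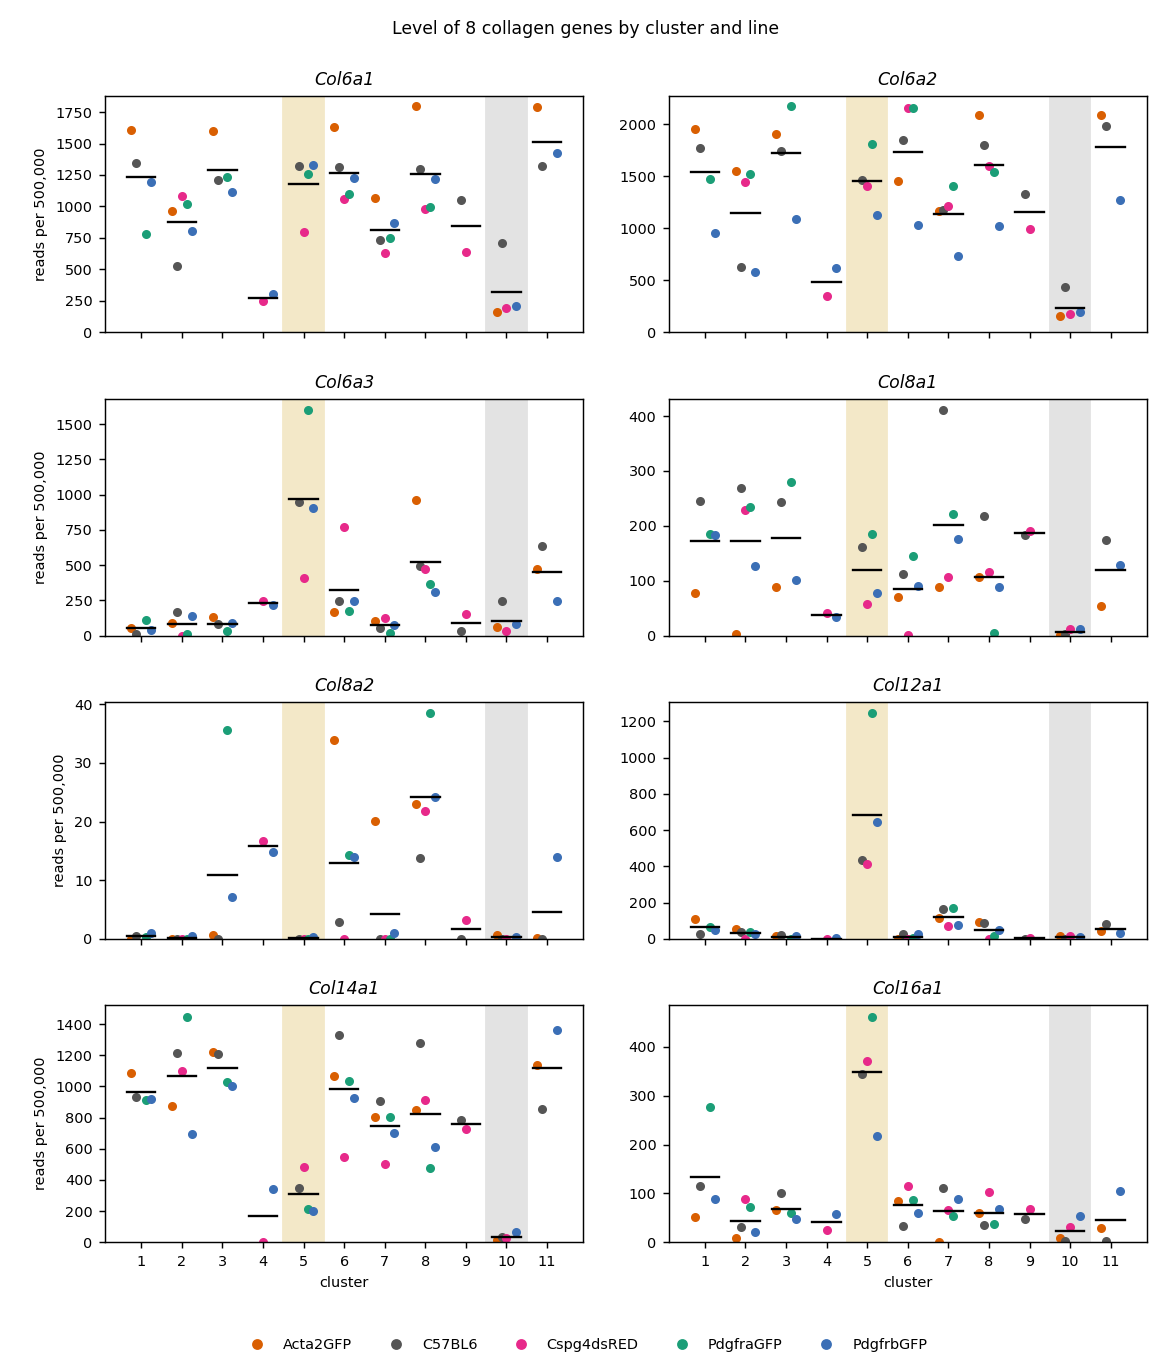
Level of 8 of the collagen genes (reads per 500,000 endogenous reads, linear axes that differ between panels) in clusters 1 to 11. Each point is the mean over the cells of 1 line with at least 3 cells in the cluster and each bar the mean over lines; cluster 5 is shaded yellow and the mural-like cluster 10 grey. Col12a1 stands at 414 to 1244 in cluster 5 and at no more than 172.4 in any line of any other cluster, while Col14a1 is at 13.9 to 64.6 in cluster 10.

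Col6a1 (chr10:76708792-76726168, minus strand, GRCm38) encodes the α1 chain and Col6a2 (chr10:76595762-76623630, minus strand) the α2 chain. Both lie in the same orientation with 85161 bases between them. Col6a3 (chr1:90765923-90843971, minus strand) encodes the α3 chain and lies on another chromosome. No exon of these 3 genes overlaps an exon of another annotated gene. Across 29 groups of cells (1 line in 1 cluster, at least 10 cells each), the log2 levels of Col6a1 and Col6a2 had a Pearson r of 0.92. The corresponding r of Col6a1 with Col6a3 was 0.39. These groups share lines, plates and depth, and the values are descriptions. Cluster 10 is among them, with 12 Acta2GFP, 65 Cspg4dsRED and 45 PdgfrbGFP cells. The values therefore cover mural-like cells as well as fibroblasts, and the part of that split in them was not tested. The proximal promoters are given as sequence only, and their part in these r values was not tested. RefSeq gave windows of 250 bases before to 50 bases after the start for 7 of the 9 genes (assembly GRCm38.p6), and those of the collagen VI chains read as follows, 5′ to 3′ on the gene's strand, with capitals marking GC boxes (GGGCGG or its reverse complement CCGCCC).
Col6a1, chr10:76725995-76726294, minus strand: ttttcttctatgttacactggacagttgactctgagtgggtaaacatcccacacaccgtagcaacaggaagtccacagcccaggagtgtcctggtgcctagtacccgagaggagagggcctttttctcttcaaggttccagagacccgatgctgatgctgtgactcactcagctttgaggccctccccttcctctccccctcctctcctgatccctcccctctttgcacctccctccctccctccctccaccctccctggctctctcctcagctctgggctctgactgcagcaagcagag
Col6a2, chr10:76623581-76623880, minus strand: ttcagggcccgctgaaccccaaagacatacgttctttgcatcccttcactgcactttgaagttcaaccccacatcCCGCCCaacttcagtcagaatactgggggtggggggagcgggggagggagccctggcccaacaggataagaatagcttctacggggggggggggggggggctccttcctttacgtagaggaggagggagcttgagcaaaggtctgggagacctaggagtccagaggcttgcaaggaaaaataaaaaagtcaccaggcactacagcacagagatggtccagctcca
Col6a3, chr1:90843922-90844221, minus strand: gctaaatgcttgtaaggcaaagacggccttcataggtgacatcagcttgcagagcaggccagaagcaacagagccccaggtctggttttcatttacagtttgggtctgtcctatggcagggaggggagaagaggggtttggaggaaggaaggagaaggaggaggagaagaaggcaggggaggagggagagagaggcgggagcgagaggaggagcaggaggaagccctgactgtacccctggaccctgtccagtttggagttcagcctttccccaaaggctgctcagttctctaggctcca
The windows of Col6a2 and Col6a3 start from the annotated gene start, and that of Col6a1 from a start inside the annotated gene. A search on both strands looked for the TATA box as TATAAA, for the CAAT box as CCAAT and for the GC box as GGGCGG, motifs that do not overlap each other. It found 1 match in the 3 windows, a GC box of Col6a2 at position -175 from the start. Over all 32851 windows of the same length, the TATA box was present in 13.6%, the CAAT box in 37.4% and the GC box in 35.7%. A second RefSeq start of Col6a2 (chr10:76623355-76623654) had 3 GC boxes. GC content was 57.3% for Col6a1, 56.7% for Col6a2 and 56.3% for Col6a3, against a median of 52.7% over all windows. None of the 3 motifs was found in the windows of Col6a1 and Col6a3.

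The first comparison asked how the mural-like cells differ from fibroblasts in these collagens. It covered 4 lines with 1207 fibroblasts, since PdgfraGFP gave no cell of cluster 10. In edgeR's quasi-likelihood test, blocked by line, calls needed a Benjamini-Hochberg adjusted p below 0.05 together with a log2 fold change of at least 2 in either direction. Of the 9 members 8 were tested, as Col13a1 did not pass the low-count filter. Of these 8, 4 fell in cluster 10 and 0 rose: Col6a1, Col6a2, Col8a1 and Col14a1. Over all 13861 genes tested, 6.06% were called lower and 2.28% higher, and the median gene stood at -0.81 on the log2 scale. No member was higher in edgeR at an unadjusted p under 0.05 (count 0) or called higher by DESeq2 (count 0), which called 5 lower. In the edgeR test 2786 genes had an unadjusted p under 0.05.

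Col6a1 stood at 161.5 in Acta2GFP, 711.9 in C57BL6, 192.98 in Cspg4dsRED and 210.6 in PdgfrbGFP cells of cluster 10. In the fibroblasts of the same lines the levels were 1628, 1105, 659 and 1114. Cluster 10 was lower in every line, but the mean of its 3 C57BL6 cells, of which 2 had a Col6a1 read, lay above the mean of the Cspg4dsRED fibroblasts, so the ranges of the line means overlapped. The log2 fold change was -2.0 ± 0.44 (SE, adjusted p = 0.00786, edgeR), which is at the fold minimum. It stood at -1.81 with median-of-ratios scaling, at -1.45 without Acta2GFP and at -1.88 without PdgfrbGFP, all short of that minimum, and at -1.19 (adjusted p = 0.114, edgeR) when the median gene was set to 0. DESeq2 did not call it (adjusted p = 0.107), and 7 of 13 alternatives kept the call.

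Col6a2 levels in cluster 10 were 160.9 in Acta2GFP, 431.8 in C57BL6, 173.4 in Cspg4dsRED and 192.1 in PdgfrbGFP. The fibroblasts had 1910, 1551, 1043 and 975. The ranges did not overlap. The log2 fold change was -2.42 ± 0.33 (adjusted p = 6.91e-05, edgeR), and -1.61 with the median gene at 0, where the adjusted p was 0.00339 and the fold minimum was not reached. The cluster 10 level was 28.3% of the fibroblast level for Col6a1 and 17.5% for Col6a2 (ratio of means over lines). Without C57BL6 and its 3 cells of cluster 10, a check chosen after seeing the data, these were 16.6% and 13.4%. For comparison, the corresponding percentage was 7.07% for Col1a1, the α1 chain of collagen I, 11.9% for Dcn, the proteoglycan decorin, and 1.98% for Pdgfra, and 6.90%, 6.70% and 2.21% without C57BL6.

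Col6a3 showed no difference past the test. Its levels in cluster 10 were 58.8 in Acta2GFP, 243.2 in C57BL6, 33.1 in Cspg4dsRED and 83.2 in PdgfrbGFP, against 326.6, 213.6, 208.2 and 184.5 in fibroblasts. Cluster 10 was lower in 3 of 4 lines, and the exception was C57BL6 with its 3 cells. The log2 fold change was -1.64 ± 0.61 (adjusted p = 0.116, edgeR). Without C57BL6 it was -2.23 (adjusted p = 0.0168), and with ERCC spike-in scaling -2.43 (adjusted p = 0.0275), both called.

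Col8a1 (chr16:57624258-57754737, minus strand), the α1 chain of collagen VIII, was called lower in cluster 10. Its levels were 0.594 in Acta2GFP, 3.01 in C57BL6, 11.995 in Cspg4dsRED and 13.01 in PdgfrbGFP. The fibroblast levels were 76.004, 253.4, 150.4 and 120.6, with no overlap. The log2 fold change was -4.77 ± 0.96 (adjusted p = 0.00354, edgeR), and the call held under all 13 alternative settings tried for this comparison. By plate and line the log2 differences were -6.28 to -3.18 in 6 of 7 groups and -0.72 in the other, where 4 PdgfrbGFP cells of cluster 10 stood at 52.8 against 87.5 in fibroblasts. The highest cell of cluster 10 was at 390.9. Col8a2 (chr4:126286793-126314330, plus strand), the α2 chain, was at 0 in C57BL6 and Cspg4dsRED, 0.734 in Acta2GFP and 0.392 in PdgfrbGFP cells of cluster 10, and at 1.65 to 8.71 in fibroblasts. These ranges did not overlap, but the adjusted p was 0.0835 (edgeR) for a log2 fold change of -5.08 ± 1.75, and DESeq2 called it (-4.52, adjusted p = 0.00111).

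Col14a1 (chr15:55307750-55520803, plus strand), which encodes the fibril-associated collagen XIV, had the lowest adjusted p of the members. Cluster 10 stood at 13.9 in Acta2GFP, 34.1 in C57BL6, 24.1 in Cspg4dsRED and 64.6 in PdgfrbGFP. The fibroblasts stood at 1105, 1076, 638 and 817. Every fibroblast value lay above every cluster 10 value, and the fitted difference was 29.8-fold (log2 fold change -4.9 ± 0.52, adjusted p = 4.02e-06, edgeR). The level in cluster 10 was 3.76% of that in fibroblasts, or 4.01% without C57BL6. All 13 alternatives kept the call.

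The other fibril-associated members were not called in edgeR. Col12a1 (chr9:79598991-79718831, minus strand) was at 1.00 to 16.8 in cluster 10 and at 18.4 to 90.6 in fibroblasts, with a log2 fold change of -2.64 ± 1.2 (adjusted p = 0.219, edgeR). It was called lower by DESeq2 (-2.47, adjusted p = 0.0308) and in edgeR with sums per plate and line (-3.40, adjusted p = 0.0194). Col16a1 (chr4:130047840-130099283, plus strand) was at 2.93 to 53.7 against 45.1 to 102.9, with -2.38 ± 1.09 (adjusted p = 0.226). Both were lower in 4 of 4 lines, and the ranges overlapped for Col16a1 only. For Col12a1 the Cspg4dsRED means were close, at 16.4 in cluster 10 and 18.4 in fibroblasts. On 1 plate of that line, with 49 cells of cluster 10, cluster 10 was the higher (21.5 against 16.05). It was the lower in every other group by plate and line.

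**Figure D2:**
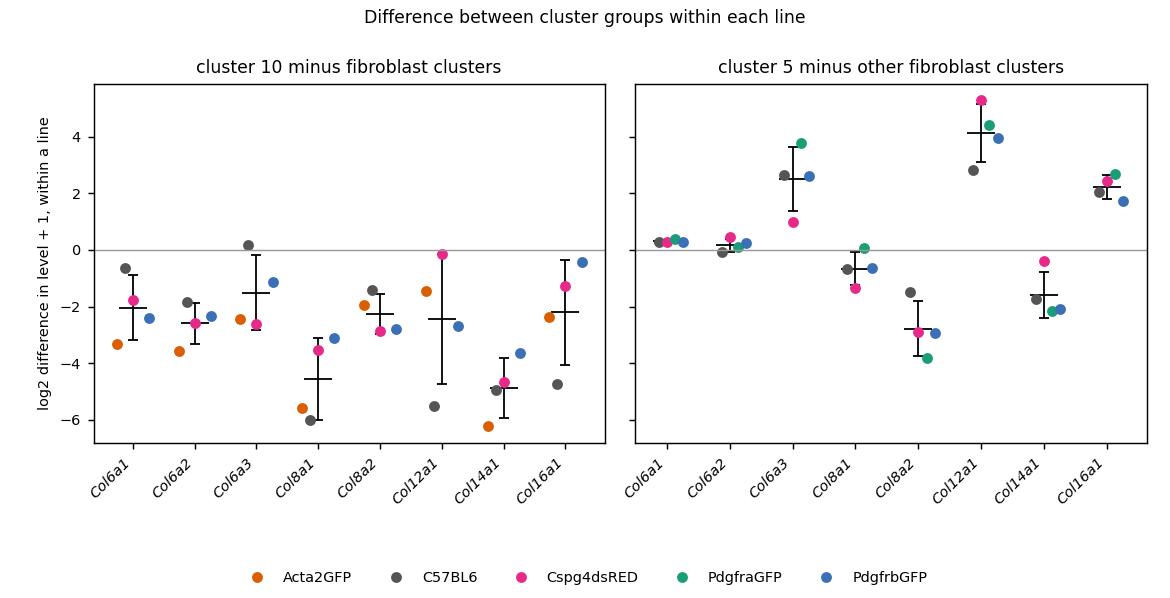
Log2 difference in level (pseudocount 1) within each line, for cluster 10 minus fibroblast clusters (left) and cluster 5 minus the other fibroblast clusters (right), for 8 collagen genes. Points are lines, the bar is the mean and the whiskers the SD over 4 lines; the axis is in log2 units and the grey line marks no difference. Col8a1 and Col14a1 lie below 0 in all 4 lines on the left, and Col6a3, Col12a1 and Col16a1 above 0 in all 4 lines on the right.

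The mural-like cells also had reads of fibroblast markers, which touches these low levels. All 8 fibroblast markers had reads in cluster 10, with a summed level of 509 to 2218 per line against 15090 to 21520 in fibroblasts, and Pdgfra at 6.14 against 309.9. The part of these reads in the collagen levels of cluster 10 was not tested. Within cluster 10 the levels were uneven between cells. The median cell had a Col6a1 level of 56.6, while the upper quartile began at 283.6 and the highest cell reached 1865.

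The second comparison asked how the Tnc+ Cd34- fibroblasts of cluster 5 differ from the other fibroblasts. It covered 4 lines, 76 cells of cluster 5 and 1161 other fibroblasts, since Acta2GFP gave no cell of cluster 5. Of the 8 members tested, 3 rose in cluster 5 and 0 fell: Col6a3, Col12a1 and Col16a1. Over all 13988 genes, 0.343% were called higher and 0.536% lower in the edgeR fit. For lower members, 3 had an unadjusted p under 0.05 in edgeR (Col8a1, Col8a2 and Col14a1), and DESeq2 called 1 lower, Col8a2. Of these, Col14a1 passed the adjusted p but not the fold minimum. Of all genes, 1458 had an unadjusted p under 0.05, and the median log2 fold change was -0.69. Vascular mural markers had reads in cluster 5, with none of 9 at 0 over all lines and a summed level of 435 to 752.5 per line against 64.45 to 169.6 in the other fibroblasts of the 5 lines. Acta2, the smooth muscle actin, had the highest level of the 9 in cluster 5 (273.04 to 575 per line) and was the 1 marker of 9 called higher (log2 fold change 3.16, adjusted p = 0.00574, edgeR). The median was 0.91. Among the markers not called, Myh11 (3.59), Tagln (2.77), Cspg4 (1.02), Notch3 (0.91) and Mcam (0.41) had positive log2 fold changes. Rgs5 (-0.95), Kcnj8 (-3.03) and Des (-4.74) had negative ones. Tagln stood at 45.3 to 96.55 per line in cluster 5 and at 6.83 to 13.5 in the other fibroblasts. Of the 9 markers, 3 had an unadjusted p under 0.05 in edgeR, and DESeq2 called 4. Myh11, Rgs5, Notch3, Mcam and Kcnj8 were at 0 in at least 1 line of cluster 5. The part of these markers in the collagen levels was not tested.

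Col12a1, a collagen enriched in tissues under mechanical load, had the largest rise of the members in cluster 5. Cluster 5 stood at 435 in C57BL6, at 414 in Cspg4dsRED, at 1244 in PdgfraGFP and at 644 in PdgfrbGFP. The other fibroblasts of these lines stood at 60.6, 9.60, 57.4 and 40.5. The ranges were far apart, and the fitted difference was 17.7-fold (log2 fold change 4.15 ± 0.35, adjusted p = 0.000486, edgeR). The call held under all 13 alternatives, at 3.84 to 4.84 on the log2 scale. Within the 5 groups that shared both plate and line the log2 differences were 2.82 to 4.41. On the order of clusters, cluster 5 (684 ± 387, SD, n = 4 lines) was followed by cluster 7 (120.6 ± 48.2, n = 5). In the 4 lines with both, cluster 5 was the higher in 4 of 4, by 562.1 ± 362.3 (mean and SD of the within-line differences).

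Col6a3 stood in cluster 5 at 948 in C57BL6, at 407 in Cspg4dsRED, at 1600 in PdgfraGFP and at 908 in PdgfrbGFP. In the other fibroblasts it stood at 149.5, 203.8, 116.3 and 148.7. Every cluster 5 value was above every value of the other fibroblasts, and the log2 fold change was 2.37 ± 0.46 (5.18-fold, adjusted p = 0.0374, edgeR). Without PdgfraGFP, the line with the widest difference, it was 1.92 and under the fold minimum. Col6a1 and Col6a2, its partner chains, were not called. Col6a1 was at 1320, 800.5, 1261 and 1327 in cluster 5, in the same order of lines, and at 1087, 656, 965 and 1103 in the others. The ranges overlapped, with a log2 fold change of 0.21 ± 0.18 (adjusted p = 0.806, edgeR). For Col6a2 the log2 fold change was 0.10 ± 0.14 (adjusted p = 0.878), and its sign turned to -0.03 without a low-count filter and with cells thinned to equal depth. With the median gene set to 0, the log2 fold changes of Col6a1 and Col6a2 were 0.91 (adjusted p = 0.0366) and 0.80 (adjusted p = 0.0151), still under the fold minimum, while that of Col6a3 was 3.07.

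Col16a1, a minor collagen that links fibrils and microfibrils, stood at 344.8 in C57BL6, at 370.3 in Cspg4dsRED, at 462.3 in PdgfraGFP and at 217.6 in PdgfrbGFP cells of cluster 5. The other fibroblasts had 81.8, 67.5, 71.7 and 65.6. The groups did not overlap, and the log2 fold change was 2.04 ± 0.34 (4.13-fold, adjusted p = 0.0155, edgeR). This is close to the fold minimum: it was 1.91 (adjusted p = 0.0542) without PdgfraGFP and 1.92 without the low-count filter. The next cluster in order was cluster 1 (133.02 ± 99.8, n = 4 lines), below cluster 5 in 3 of 3 shared lines, and at 84.9 without PdgfraGFP.

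Col14a1 was lower in cluster 5 in 4 of 4 lines. Its levels stood at 346 in C57BL6, at 485 in Cspg4dsRED, at 214.98 in PdgfraGFP and at 200.8 in PdgfrbGFP, against 1139, 642, 953 and 847.5. The ranges did not overlap, and the log2 fold change was -1.84 ± 0.30 (adjusted p = 0.0152, edgeR), short of the fold minimum. It reached that minimum, at -2.19 (adjusted p = 0.0204), without Cspg4dsRED and its 3 cells of cluster 5, and at -2.28 with sums per plate and line. With the median gene at 0 it was -1.15 (adjusted p = 0.125). Col12a1 and Col14a1, both fibril-associated, thus had log2 fold changes of opposite sign in cluster 5.

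Collagen VIII gave no call in cluster 5. Col8a1 was at 58.6 to 184.4 in cluster 5 and 122.8 to 261.4 in the other fibroblasts, with a log2 fold change of -0.93 ± 0.36 (adjusted p = 0.342, edgeR). Col8a2 was at 0 in 3 lines and at 0.341 in PdgfrbGFP cells of cluster 5, against 1.80 to 13.002 in the others. Its log2 fold change was -6.66 ± 1.82 (adjusted p = 0.141, edgeR), a fitted value that depends on the prior count because 3 lines of cluster 5 were at 0. It was -10.65 without PdgfrbGFP, where all remaining lines of cluster 5 were at 0, and -5.80 without PdgfraGFP. DESeq2 called it (adjusted p = 9.4e-05).

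The share of other fibroblasts with reads of the cluster 5 genes differed by well position. Of fibroblasts outside cluster 5, 45.1% had a Col12a1 read when no cluster 5 cell shared their row or column of the plate, 63.1% with 1 or 2 such cells, and 74.2% with 3 or more. For Tnc, the marker of cluster 5, the same percentages were 1.01%, 25.98% and 58.2%. For Col16a1 they were 60.6%, 73.1% and 77.8%, and for Col6a3 83.03%, 89.96% and 87.7%. These cells were pooled over plates and lines, which differ in depth and in their number of cluster 5 cells. In a check chosen after seeing the data, the 6 combinations of plate and line with at least 20 cells on each side were taken singly. The share with a read was higher beside 1 or more cluster 5 cells than beside none in 5 of 6 for Col12a1, Tnc and Col6a3 and in 4 of 6 for Col16a1. The differences ran from -4.32 to 14.04 percentage points for Col12a1 and from -2.44 to 80 for Tnc. The part of this pattern in the levels outside cluster 5 was not tested. At a minimum of 10 reads the Col12a1 percentages were 17.98%, 24.5% and 32%, and those of Tnc at most 1.23%.

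The third comparison asked which members differ among the 9 fibroblast clusters other than cluster 5. It used 35 sums of 1 line in 1 cluster over 5 lines, 1272 cells in all, and a single test over all cluster terms, called at an adjusted p under 0.05 with no fold minimum. Of 8 members tested, 3 were called, the collagen VI chains, while 2.54% of 14776 genes were called. The range between the highest and the lowest cluster was 1.91 on the log2 scale for Col6a1 (adjusted p = 0.00257, edgeR), 1.52 for Col6a2 (adjusted p = 0.0405) and 2.97 for Col6a3 (adjusted p = 0.0421). The calls of Col6a2 and Col6a3 sat near the threshold. Col6a2 was lost without any 1 of Acta2GFP, C57BL6, Cspg4dsRED and PdgfraGFP (adjusted p = 0.114 to 0.263), and Col6a3 without any 1 of Acta2GFP, C57BL6, PdgfraGFP and PdgfrbGFP (adjusted p = 0.0528 to 0.26). Col6a1 was lost without PdgfrbGFP (adjusted p = 0.338), with at least 10 cells per sum (0.0594) and in DESeq2 (0.063). Over all 13 alternatives the call was kept in 10 for Col6a1, 9 for Col6a3 and 5 for Col6a2.

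The clusters that set these ranges were not the same for the 3 chains. Col6a1 was lowest in cluster 4, by -1.59 ± 0.25 (log2, SE) against the mean of the other clusters, and highest in cluster 11, by 0.55 ± 0.17. Col6a2 was likewise lowest in cluster 4 (-1.10 ± 0.29) and highest in cluster 11 (0.61 ± 0.20). Col6a3 was highest in cluster 8 (2.00 ± 0.50), followed by cluster 11 (1.71 ± 0.66) and cluster 6 (1.07 ± 0.53), and lowest in cluster 2 (-1.34 ± 0.65). Cluster 4 held 17 of its 23 cells from Cspg4dsRED and cluster 11 held 43 of 51 from Acta2GFP, so that cluster and line are partly confounded there. The order of Col6a3 levels ran from cluster 5 (966 ± 489) to cluster 8 (521 ± 256.4), cluster 11 (452 ± 196.1), cluster 6 (320.6 ± 254.55) and cluster 4 (230.7 ± 23.1), with 54.6 to 93.1 in clusters 1, 2, 3, 7 and 9. The place of cluster 6 rests on 3 Cspg4dsRED cells at 770.99, against 167.4 to 247.01 in its other lines: without them its mean was 208.01, below that of cluster 4. Of these steps, those from 5 to 8 (554.6 ± 535.3 within lines) and from 11 to 6 had a mean above the SD of the within-line differences, and those from 8 to 11 and from 6 to 4 did not. Cluster 5 was above cluster 8 in 3 of 4 shared lines, with Cspg4dsRED at 407 and 475, and cluster 11 above cluster 6 in 3 of 3.

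In cluster 8 the Col6a3 level was highest in Acta2GFP (959), with 493 for C57BL6, 475 for Cspg4dsRED, 367 for PdgfraGFP and 310.1 for PdgfrbGFP. All 5 values were above those of cluster 7 in the same lines, which were 103.2, 53.6, 122.5, 21.6 and 76.2. Cluster 3, the largest cluster, stood at 85.2 ± 38.1 (n = 4 lines) for Col6a3 and at 1289 ± 210.5 for Col6a1.

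Among the members not called, Col8a2 and Col12a1 had the widest ranges. Col8a2 was highest in cluster 8, at 38.4 for PdgfraGFP, 24.1 for PdgfrbGFP, 22.97 for Acta2GFP, 21.9 for Cspg4dsRED and 13.7 for C57BL6. It had reads in each of the 5 lines there, and stood 4.12 ± 1.04 above the mean of the other clusters on the log2 scale. Its overall adjusted p was 0.094 (edgeR), and 0.00368 in DESeq2. The level came from few cells. In cluster 8, 45 cells (24.7%) had a Col8a2 read and 23 had at least 10, while in cluster 6 the counts were 48 (25.5%) and 22. Clusters 2 and 5 were at 0.0826 and 0.0852, with reads in PdgfrbGFP alone. Col12a1 was highest in cluster 7, by 3.33 ± 0.74 (overall adjusted p = 0.0837, edgeR), and the order of its levels put cluster 7 above cluster 1 in 4 of 4 shared lines. Col14a1 was lowest in cluster 4, by -2.87 ± 0.70 (overall adjusted p = 0.271). It stood there at 2.05 in Cspg4dsRED and at 338.2 in the 4 cells of PdgfrbGFP, a line with 611 to 1365 in the other clusters outside 5 and 10. Over the other clusters outside 5 and 10, Col14a1 ran from 744 to 1119. Col8a1 and Col16a1 had adjusted p of 0.939 and 0.989.

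The collagen VI chains were then set against each other within each line. Per kilobase of exon, Col6a2 was 0.709 ± 0.174 of Col6a1 in fibroblasts (n = 5 lines), with 0.461 as the lowest line (PdgfrbGFP). This ratio depends on length: with the main transcript in place of all exons, it was 1.40 ± 0.344. It was 0.449 ± 0.0895 in cluster 10, lower than in fibroblasts in 3 of 4 lines, with a log2 difference of -0.55 ± 0.57 (SD, exact sign-flip permutation p = 0.25, two-sided, adjusted p = 0.5). Between cluster 5 and the other fibroblasts the difference was -0.14 ± 0.24 (exact permutation p = 0.375, adjusted p = 0.5). Both differences were smaller than their SD over 4 lines, but not without 1 of the lines: the difference was -0.75 ± 0.49 for cluster 10 without PdgfrbGFP and -0.24 ± 0.17 for cluster 5 without Cspg4dsRED, below 0 in 3 of 3 lines each.

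Col6a3 behaved differently. Its ratio to Col6a1 was 0.291 ± 0.121 in cluster 5 and 0.0644 ± 0.0330 in the other fibroblasts of the same 4 lines. The log2 difference was 2.21 ± 1.11 and above 0 in 4 of 4 lines. The exact permutation p was 0.125, the smallest that 4 lines allow, and 0.5 after adjustment over 4 tests, so this test over 4 lines cannot reach 0.05. In cluster 10 the ratio was 0.116 ± 0.0367, with a log2 difference of 0.51 ± 0.95 from fibroblasts (exact permutation p = 0.5). By cluster it was lowest in cluster 1 (0.0199) and cluster 3 (0.0239), higher in cluster 8 (0.148), and 0.310 in the 2 lines of cluster 4.

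**Figure D3:**
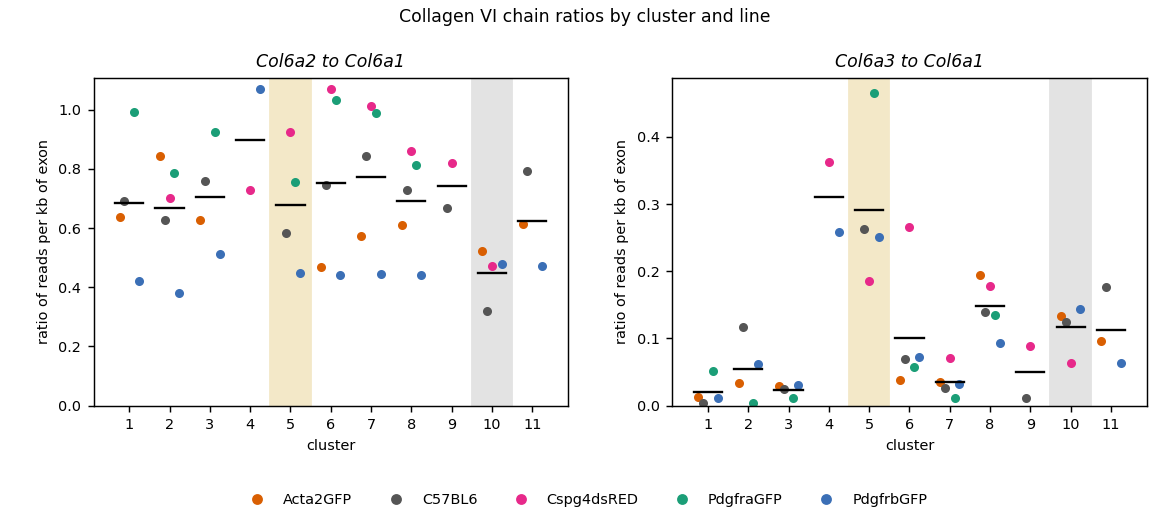
Ratio of Col6a2 to Col6a1 (left) and of Col6a3 to Col6a1 (right) in reads per kilobase of exon, by cluster. Points are lines with at least 3 cells in the cluster and bars are means over lines, with cluster 5 shaded yellow and cluster 10 grey. The left ratio lies between 0.319 and 1.07 throughout, and the right one averages 0.291 in cluster 5 against 0.0199 in cluster 1.

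The chains were then counted in single cells. Each cell was thinned to 50000 reads, which left out 6 shallower cells, and a gene was counted as present at 10 or more reads. All 3 chains were present in 72 of 76 cells of cluster 5 (94.7%, exact Clopper-Pearson 95% interval 87.1 to 98.5%). They were present in 82.4% of cluster 11, 69.2% of cluster 8 and 55.6% of cluster 6, but in 14.3% of cluster 1 (8.22 to 22.5%) and 5.6% of cluster 10 (2.28 to 11.2%). In cluster 1, 83.8% of cells had Col6a1 and Col6a2 without Col6a3, which became 60% at 10 of all reads, 36.2% at 1 thinned read and 10.48% at 1 of all reads. Over all fibroblast clusters this combination was found in 715 of 1348 cells (53.04%), and all 3 chains in 559 (41.5%). Col6a3 in the absence of at least 1 partner chain was seen in 17 fibroblasts (1.26%). Of those, 7 were among the 21 cells of cluster 4 (33.3%, interval 14.6 to 56.97%), and in cluster 10 it was 11 cells (8.8%). Intervals cover counting error only, and cells of 1 line are not independent.

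Col12a1 and Col14a1 were compared in the same way. In cluster 5, 34 of 76 cells (44.7%, interval 33.3 to 56.6%) had Col12a1 without Col14a1, 30 (39.5%) had both, 10 (13.2%) had Col14a1 without Col12a1 and 2 had neither. These shares depend on the read minimum. Cells with Col12a1 and no Col14a1 made up 18.4% of cluster 5 at 10 of all reads, 6.58% at 1 thinned read and 1.32% at 1 of all reads, where 73 of 76 cells had both. In cluster 7, the cluster with the next highest Col12a1 level, Col12a1 without Col14a1 was seen in 5 cells (2.19%) and both in 27.2%. Over all fibroblasts 77.6% had Col14a1 without Col12a1. In cluster 10, 83.2% had neither, and in cluster 4, 85.7%.

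Of the collagen VIII chains, Col8a1 was present in 521 of 1348 fibroblasts (38.6%, interval 36.04 to 41.3%) and in 3.2% of cluster 10. Col8a2 was present in 35 fibroblasts (2.60%), of which 14 also had Col8a1. At 1 of all reads Col8a2 was present in 15.4% of fibroblasts, in 13.3% together with Col8a1 and in 2.07% without it. In cluster 8 the share with Col8a2 at 10 thinned reads was 8.24% (interval 4.69 to 13.2%), and in cluster 5 it was 0 of 76. At 1 of all reads these shares were 24.7% and 9.21% (7 of 76). The r of the 2 genes over the 29 groups was -0.081.

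**Figure D4:**
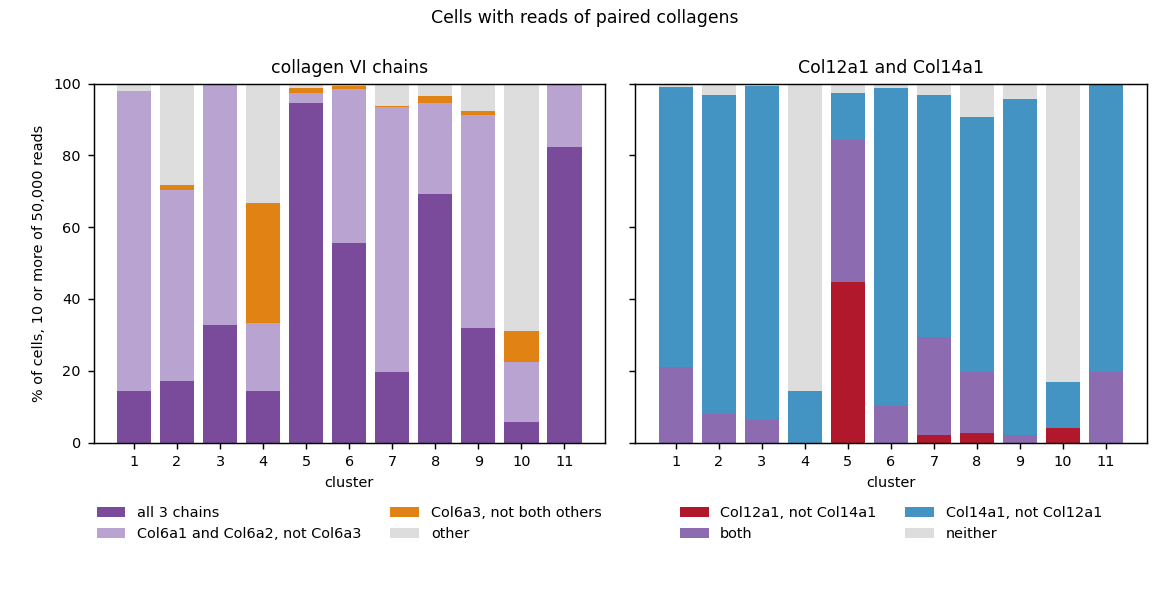
Percentage of cells (bars from 0 to 100) by combination of collagen VI chains (left) and of Col12a1 and Col14a1 (right) in each cluster, with a gene counted as present at 10 or more of 50,000 thinned reads. At this minimum all 3 chains are present in 94.7% of cluster 5 and 14.3% of cluster 1, and Col12a1 without Col14a1 in 44.7% of cluster 5; at other minimums these run up to 98.7%, up to 89.5% and down to 1.32%.

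Col13a1 (chr10:61838236-61979108, minus strand), a transmembrane collagen, was all but undetected. It had reads in 10 of 1479 cells, of which 68 were in 1 cell of cluster 3, 58 in 1 cell of cluster 7, 55 in 1 cell of cluster 8 and 9 in 1 cell of cluster 6, and the other 6 cells had 1 read each. It did not pass the low-count filter and was not tested.

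The genes whose log2 levels ran most nearly parallel to each member were found over the 29 groups among 9914 genes. For Col6a1 they were Col3a1 (Pearson r = 0.947), Col1a2 (0.927) and Gm47302 (0.925), and for Col6a2 Col3a1 (0.945), Col1a2 (0.921) and Col6a1 (0.92). For Col6a3 the highest values were lower, with Med12l (0.708), Fuca2 (0.691) and Tiam1 (0.683). The nearest genes of Col14a1 were Medag (0.959), Gm20488 (0.948) and Lrrk1 (0.933), and those of Col12a1 were Spon1 (0.829), Neo1 (0.806) and Enpp2 (0.803). Col8a1 was followed by Ifi27l2a (0.86), Dnm1 (0.85) and Fbn1 (0.845), and Col8a2 by Gdf10 (0.809), Sult5a1 (0.769) and A830012C17Rik (0.754). Col16a1 was followed by Gria4 (0.797), Myh10 (0.778) and Il4ra (0.768). Col6a1 and Col6a2 thus ran closest to the fibril-forming collagens I and III, while Col6a3, Col12a1 and Col16a1 each had different nearest genes.

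Genes around these collagens were followed in 5 lists, of which 66 genes were in the table. Between cluster 10 and fibroblasts, 50 were tested, 19 fell and 2 rose, where 6.06% of all genes tested were called lower and 2.28% higher. The fibril-forming collagens, which the fibril-associated ones decorate, fell in 5 of 8 cases, with Col5a1 at -3.83, Col1a1 at -3.80, Col3a1 at -3.38 and Col1a2 at -3.10 on the log2 scale. The list had a median of -3.24, against -0.81 over all genes. Col1a1 and Col1a2, like Lum and Dcn among the matrix partners, are also fibroblast markers by which cluster 10 was called mural-like, so their fall is no separate result. Matrix partners fell in 8 of 11 cases (median -4.39), led by Fmod (-6.50), Nid2 (-5.99), Tnxb (-5.05) and Lum (-4.91). Fmod and Lum are proteoglycans bound to fibrils, Nid2 is a basement membrane glycoprotein and Tnxb encodes tenascin-X. The list of folding and secretion genes fell in 4 of 16 cases (median -2.26): P3h3 (-5.18), Plod2 (-3.80) and P4ha1 (-3.68), which hydroxylate collagen, and Serpinh1 (-2.19), a collagen chaperone.

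Collagen receptors went both ways in cluster 10. Of 9 tested, Cspg4 (5.95), the proteoglycan NG2 that binds collagen VI, and Itga1 (4.45), a collagen-binding integrin subunit, rose, and Itga11 (-6.44), another such subunit, fell. The median was 0.33. Cspg4 is also a mural marker and names the reporter line. Among 6 tested chains of related collagen types, only Col15a1 was called (-5.84 ± 1.07, adjusted p = 0.00152, edgeR), and the median was -3.82.

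In cluster 5, 49 list genes were tested, 4 rose and 3 fell, where 0.343% of all genes tested were called higher and 0.536% lower. Col24a1 (8.16 ± 1.62, adjusted p = 0.0447, edgeR) and Col11a1 (6.54 ± 1.33, adjusted p = 0.0499), 2 minor fibril-forming collagens, rose among 9 tested, and the list's median was 1.12 against -0.69 over all genes. Itga11 rose (3.64 ± 0.56, adjusted p = 0.0109) among 9 receptors tested (median -0.15). Of 11 matrix partners, Tnc rose (9.79) and Lum (-3.96), Matn2 (-3.78) and Tnxb (-2.33) fell (median -0.39). Tnc was used by the study to define these cells. None of 16 folding genes (median -0.29) and none of 4 chains of related types (median -1.86) was called in edgeR. In each of these lists 2 genes had an unadjusted p under 0.05, and DESeq2 called 2 in each.

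Among the fibroblast clusters outside cluster 5, 10 of 54 list genes were called, against 2.54% of all genes tested. They were 5 of 11 matrix partners, 3 of 9 fibril-forming collagens and 2 of 8 related chains. Among the matrix partners, Fmod, Fn1, Matn2 and Lum had the widest ranges (4.95, 2.28, 1.57 and 1.00 on the log2 scale). The fibril-forming collagens were Col1a2, Col1a1 and Col3a1, with ranges of 1.80, 1.65 and 1.64. The related chains were Col23a1 and Col6a5, with ranges of 14.57 and 9.19. Col23a1 had an SE of 3.67 in its lowest cluster. For Col6a5 the SEs of the highest and lowest cluster were 19466 and 19216, so the fit gives no usable size for its differences. None of 10 receptors and none of 16 folding genes was called in edgeR, where each list had 2 genes with an unadjusted p under 0.05. DESeq2 called 2 receptors and 1 folding gene. In the lists with edgeR calls, DESeq2 called fewer: 4 matrix partners, 1 fibril-forming collagen and 1 related chain. Col1a1, Col1a2 and Col3a1 were lowest in cluster 4, as were Col6a1 and Col6a2.

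Levels also differed between lines within fibroblasts. Col6a2 in fibroblasts outside cluster 5 stood at 868 to 1240 on the 3 plates with PdgfrbGFP cells, at 1910 in Acta2GFP, 1559 in C57BL6 and 1703 in PdgfraGFP. For Cspg4dsRED it was 931 on 1 plate and 2483 on the other (9 cells). On the 1 plate that held both lines, Acta2GFP was at 1910 and PdgfrbGFP at 1240, and on another Cspg4dsRED was at 2483 and PdgfraGFP at 1703. For C57BL6, which was alone on its plate, line and plate cannot be told apart. Lines on 1 plate still differ in their reporter, and the methods describe an added elastase step for Acta2GFP mice. Line, reporter and dissociation cannot be told apart there. Read density per gene was low for most members. The densest cell held 0.742 reads per exon base for Col6a1, where 11 cells were above 0.5, and at most 0.440 for the other members.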

How the data were processed

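The authors deposited 1 table of raw counts, with 46517 genes and 92 ERCC spike-ins for 1479 cells, and it holds no comparison of their own. By the submitters' processing notes and the methods, demultiplexed reads (bcl2fastq) were trimmed, mapped to GRCm38 (mm10) with TopHat2 and Bowtie or Bowtie2, cleared with samtools of what the methods call doublets, and counted with featureCounts (Subread). The annotation release and the strand setting of the counting are not given in the sources used here. Cells were sorted 1 per well with a gate against doublets, and no doublet caller was run here. By the methods, the authors removed cells with few reads or genes, and cells with very many genes as possible doublets. Cells expressing neither Pdgfra nor Pdgfrb, and cells contaminated with, for example, endothelial or immune signatures, were removed too. Smart-seq2 has no molecular identifiers, so intervals and limits cover counting error only. Symbols, exon lengths and coordinates came from GENCODE M21 for GRCm38, which matched 46005 identifiers.

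Groups came from the labels (cluster and line). Cells per line were 190 for C57BL6, 129 for Acta2GFP, 203 for Cspg4dsRED, 147 for PdgfraGFP and 810 for PdgfrbGFP, with 125 cells in cluster 10. Total reads per cell, spike-ins included, ran from 50276 to 1446059. Levels are reads per 500000 endogenous reads. Counts were summed per line and class, with at least 3 cells per sum, and tested with edgeR 4.0.16 in R 4.3.3 (TMM, filterByExpr, quasi-likelihood, the line as a block because its sums share mice and plates), with Benjamini-Hochberg adjustment over all genes. Whether the lines are independent animals is an assumption. On simulated counts, 8-fold changes of 200 genes were recovered in 197 cases (cluster 10 against fibroblasts, 13761 genes), 200 (cluster 5, 13903 genes) and 200 (fibroblast clusters, 13318 genes, with 7 false calls). The changes were placed in genes above the median level, and the simulated spread was set below that of the data. The fitted coefficient of variation between sums was 0.922, 0.917 and 1.238 in the 3 comparisons. The simulation therefore checks that the fit runs as written and does not give its power in these data. Chain ratios were tested by exact sign-flip permutation over lines. DESeq2 1.42.0, Python 3.11.15, numpy 2.4.6, pandas 2.3.3, scipy 1.17.1 and matplotlib 3.10.9 served for alternatives, tables and plots.

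The 9 genes, the 5 gene lists and the marker lists were chosen with earlier results of these data known. The genes named were the 9 members, the 3 genes most like each in log2(level + 1) among genes with a mean level of at least 5, and up to 4 called genes per list with the largest fold change. Alternatives were other scalings (median-of-ratios, ERCC, the median gene at 0), DESeq2, no low-count filter, cells thinned to 50000 reads, sums per plate and line, no block, at least 10 cells per sum, leaving out each line, median or pooled levels, other read minimums for shares, and for ratios raw reads and leaving out cells above 0.5 reads per exon base. Ratios and levels per main transcript, percentages of the fibroblast level without each line and well neighbours within plate and line were added after seeing the data.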

Additional observations from a re-analysis of the deposited data

Results flagged for a closer look

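In groups of 4 or 5 lines, 1 line was set against the others, and taken to stand apart where its gap to the nearest line took up most of the group's range (Dixon's criterion at the 95% level). This was done for 8 members (Col13a1 left out) in the 8 clusters with 4 or 5 lines and in the pooled fibroblasts with and without cluster 5, which hold cells of the same clusters. Of these 80 sets of values, 9 had such a line, where chance alone gives about 1 in 20. Of these 9 values, 4 rest on 3 cells. These are Col6a1 at 800.5 in Cspg4dsRED cells of cluster 5 (others 1261 to 1327), Col6a1 at 711.9 and Col6a2 at 431.8 in C57BL6 cells of cluster 10 (others 161.5 to 210.6 and 160.9 to 192.1), and Col6a3 at 771.0 in Cspg4dsRED cells of cluster 6 (others 167.4 to 247.01). Col6a3 in cluster 8 was 958.9 in the 11 Acta2GFP cells (others 310.1 to 493.3), and Col14a1 in cluster 1 was 1088 in the 7 Acta2GFP cells (others 914.3 to 929.3). Col8a2 stood at 20.14 in the 9 Acta2GFP cells of cluster 7 (others 0 to 0.9433), where 1 cell had reads. Its values of 0.4132 in cluster 2 and 0.3406 in cluster 5, both in PdgfrbGFP, stood apart only because every other line was at 0.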

How the results depend on the processing

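No called member changed sign under any of the alternatives run. The uncalled log2 fold change of Col6a2 in cluster 5 (0.10) became -0.03 without a low-count filter and with cells thinned. Between cluster 10 and fibroblasts, where 8.34% of genes and 4 members were called, DESeq2 called 20.9% of genes, leaving out a line 3.09% to 6.30% of genes and 3 to 5 members, and setting the median gene to 0 left 2 members (Col8a1 and Col14a1). That scaling also raised the share of calls that were higher in cluster 10 from 27.3% to 57.3%, and ERCC scaling lowered it to 12.8%. For cluster 5, where 0.879% of genes and 3 members were called, the share was 1.40% with ERCC scaling, 9.64% with DESeq2, 0.697% of a larger set of genes without a low-count filter, 2.03% with cells thinned, 4.52% with sums per plate and line (5 members, Col8a2 and Col14a1 added) and 1.33% with at least 10 cells per sum. Leaving out a line gave 0.609% to 1.33% of genes and 1 to 4 members, with Col12a1 the 1 member left without PdgfraGFP. The share of calls that were higher in cluster 5 rose from 39.02% to 68.8% with the median gene at 0. Over the other fibroblast clusters, where 2.54% of genes and 3 members were called, the share was 6.09% with DESeq2, 1.87% with cells thinned, 6.33% with sums per plate and line (5 members, Col8a2 and Col14a1 added) and 1.15% with at least 10 cells per sum. Leaving out a line gave 0.324% to 1.77% of genes and 1 to 2 members.

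The replicate block was the line. Without the replicate block 10.6% of genes were called for cluster 10, 2.43% for cluster 5 and 7.26% over the other fibroblast clusters. The log2 fold change of Col6a1 in cluster 10 became -1.77, short of the fold minimum, and Col6a2 was no longer called over the fibroblast clusters (adjusted p = 0.0932, edgeR). The cause was not tested for any of these changes. Leaving out a line moved the log2 difference of the Col6a3 to Col6a1 ratio between 1.81 and 2.71 for cluster 5 and between 0.27 and 0.98 for cluster 10, and that of Col6a2 to Col6a1 between -0.24 and -0.06 and between -0.75 and -0.33. Ratios and levels per kilobase of the main transcript were alternatives chosen after seeing the data. Levels as the median over cells were lower for genes read in few cells, such as Col12a1 in the fibroblasts outside cluster 5 (1.26 against 43.04). Setting the median gene to 0 could not be done for the test over all fibroblast clusters, which has no single fold change. The comparisons with clusters 5 and 10 rest on 4 lines, and Col8a2 and Col13a1 had the fewest reads of the members. The part of depth and of the number of lines in the results of these genes was not tested.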
